A study of Mus musculus with 2 samples.

Results

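The regulators described here are 10 transcription factors that specify skeletal muscle: Pax3, Pax7, Lbx1, Myf5, Myod1, Myog, Myf6, Mef2c, Msc and Tcf21. They were chosen by name, and all 10 of the 10 had a row among the 22072 gene symbols of both libraries. The level of a gene is its FPKM (fragments per kilobase of transcript, scaled to the mapped fragments of the library, as deposited), summed over the transcript rows of the symbol, so levels are per length and can be compared between genes. RNA came from tongues of mixed-background mouse embryos at embryonic day 12. The control library had the genotype Osr1f/+, a conditional (floxed) Osr1 allele beside a wild-type allele. The mutant library had the genotype Osr1f/-; Wnt1cre, the conditional allele over a null allele with Cre driven by Wnt1, which is active in the neural crest lineage. The conditional allele was common to both genotypes, the mutant had the null allele in every cell, and the control label names no Cre. Tongues of 3 pairs of control and mutant embryos were pooled before extraction, and each genotype was sequenced as 1 library. There was thus no replicate and no test between genotypes, and every ratio below is of the mutant over the control library. The file names place the libraries in different lanes of 1 run, so lane and genotype cannot be told apart.

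Tongue muscle forms from precursors that migrate from the occipital somites, while the connective tissue around them derives from cranial neural crest. Pax3, Pax7 and the homeobox factor Lbx1 mark migrating and proliferating precursors, and Myf5 and Myod1 commit them to the muscle fate. Myog, Myf6 and the MADS-box factor Mef2c then drive differentiation into fibres. Myf5, Myod1, Myog and Myf6 share a basic helix-loop-helix (bHLH) domain and bind the E-box, CANNTG, together with E proteins. Msc and Tcf21 are bHLH repressors best known from the precursors of head muscle, and Tcf21 is also made by fibroblast progenitors.

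Myog and Pax7 are shown because they lie at opposite ends of this sequence, Myf5 because it lies between them, and Tcf21 because it had the lowest log2 ratio of the 10. RefSeq's promoter table (GRCm38.p6) held 5 of the 10 genes. The lines give the 250 bases before the annotated start, 5′ to 3′ on the gene's strand, with E-boxes in capitals. The windows are chr1:134289754-134290003 (plus strand) for Myog, chr10:107486135-107486384 (minus strand) for Myf5, chr4:139832969-139833218 (minus strand) for Pax7 and chr10:22820144-22820393 (minus strand) for Tcf21.
Myog: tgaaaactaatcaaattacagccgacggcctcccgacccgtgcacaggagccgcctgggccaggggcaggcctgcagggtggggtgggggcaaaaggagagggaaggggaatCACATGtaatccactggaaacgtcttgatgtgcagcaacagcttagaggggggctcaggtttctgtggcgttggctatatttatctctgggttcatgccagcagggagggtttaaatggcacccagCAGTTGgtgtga
Myf5: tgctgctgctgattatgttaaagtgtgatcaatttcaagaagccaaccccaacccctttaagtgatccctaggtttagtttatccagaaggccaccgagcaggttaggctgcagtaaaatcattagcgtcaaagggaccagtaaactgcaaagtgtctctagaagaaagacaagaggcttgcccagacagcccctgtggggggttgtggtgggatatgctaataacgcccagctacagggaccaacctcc
Pax7: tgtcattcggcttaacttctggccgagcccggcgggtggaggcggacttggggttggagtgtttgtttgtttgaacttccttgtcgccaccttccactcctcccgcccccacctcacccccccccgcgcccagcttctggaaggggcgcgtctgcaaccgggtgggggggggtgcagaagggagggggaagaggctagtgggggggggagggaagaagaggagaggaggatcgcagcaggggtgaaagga
Tcf21: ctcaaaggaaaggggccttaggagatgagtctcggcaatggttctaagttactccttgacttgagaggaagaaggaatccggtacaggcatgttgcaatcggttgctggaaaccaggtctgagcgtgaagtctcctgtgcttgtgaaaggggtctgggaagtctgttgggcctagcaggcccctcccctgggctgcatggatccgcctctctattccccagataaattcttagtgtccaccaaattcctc
The Myog window held 2 matches to CANNTG, which reads the same on both strands: CACATG starting 138 bases and CAGTTG starting 12 bases before the annotated start. The windows of Myf5, Pax7 and Tcf21 held none. Mef2c, the other member in the table, is not printed: it had CAAGTG and CATATG in 1 window, CAGATG in another and no E-box in a further one. Among 32851 promoter windows of this length in the table, 66.2% held at least 1 E-box and 31.8% at least 2, and 13.0% held the form CAGCTG, which none of the windows of the members had. These matches are a description of the letters in these windows only.

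Osr1 itself, the targeted gene, had 56.8 FPKM in control and 18.4 FPKM in mutant tongue. The value covers the whole transcript, so it is no measure of the intact allele. The libraries held about 18900000 and 23200000 mapped reads, estimated from the deposited coverage. Of the 22072 symbols, 12383 counted as measured: 1 FPKM or more in at least 1 library, with a status of OK in both. The median log2 ratio of these genes, taken on FPKM plus 1, was 0.0035, and the central 95% ran from −0.31 to 0.36.

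The 10 regulators spanned a wide range of levels, and their order was nearly the same in both libraries. Myog was the most abundant, with 80.8 FPKM in control and 84.9 FPKM in mutant tongue, at percentiles 95.6 and 96.0 of measured genes. Myod1 followed with 46.9 and 43.9 FPKM, Mef2c with 21.4 and 23.0, and Msc with 10.8 and 9.86. In both libraries each of these 4 was apart from the next gene in the order beyond the 95% Poisson interval of its reads. Myf5 (7.45 and 6.78 FPKM) and Lbx1 (6.36 and 5.08 FPKM) came next, and their intervals overlapped each other in each library. Tcf21, Pax7 and Pax3, in that order, had 3.77, 3.07 and 2.91 FPKM in the control library, where neighbours in the order overlapped. In the mutant library the order was Pax7, Tcf21, Pax3, with 2.98, 2.39 and 1.84 FPKM and overlapping neighbours again. Myf6 was last, at 0.290 and 0.2003 FPKM. These intervals cover counting error only: reads of an amplified library are not separate molecules, and variation between embryos is not in them.

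**Figure D1:**
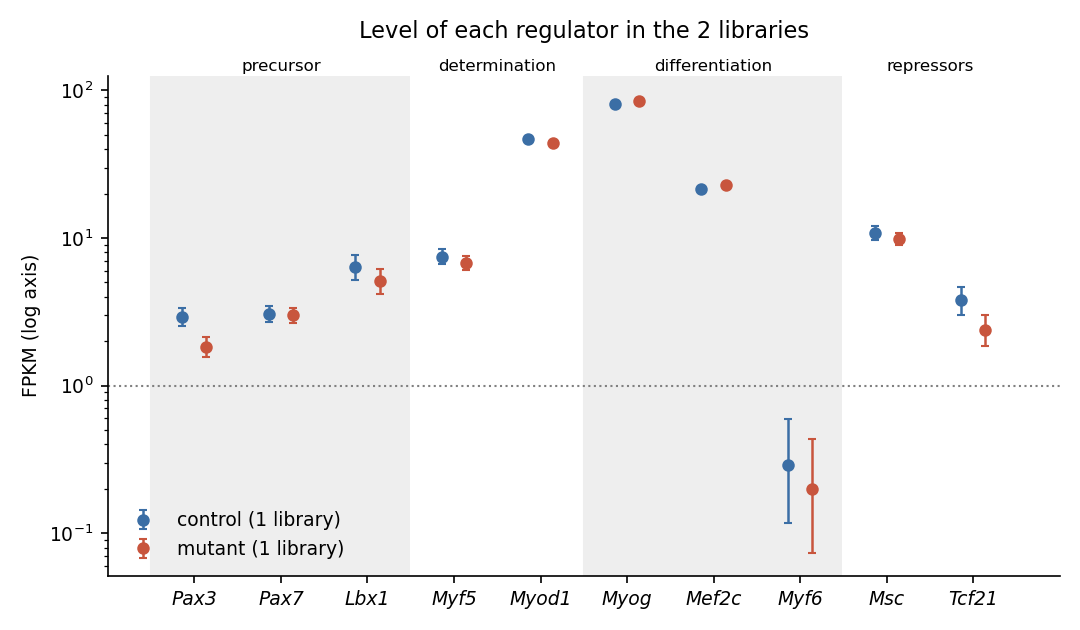
FPKM of the 10 regulators in the control (blue) and mutant (red) library on a log axis, grouped by role, 1 library each; bars are 95% Poisson intervals of the estimated reads and the dotted line is 1 FPKM. Myog, Myod1 and Mef2c lie at the top in both libraries, Pax3 and Tcf21 are lower in the mutant library, and Myf6 alone lies under the line.

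Across the members, 7 of the 9 measured regulators had less RNA in mutant tongue and 2, Myog and Mef2c, had more. With Myf6, which did not reach 1 FPKM, 8 of 10 had a ratio below 1. Over all measured genes, 48.8% were lower and 51.2% higher. The median log2 ratio of the 9 was −0.12. A difference was called large where the mutant value of FPKM plus 1 was at least 25% above or at least 20% below the control value, which is the same fold in either direction. By this rule 2 of 9, Pax3 and Tcf21, were lower, beside 2.2% of all measured genes, and 0 of 9 were higher, beside 3.23%. In either direction these were 2 of 9, beside 5.43% of all measured genes. The 95% counting interval of the ratio lay below 1 for Pax3 and Tcf21, beside 10.2% of measured genes, and above 1 for Mef2c, beside 10.7%. It left out 1 for 3 of 9 in either direction, beside 20.9%. For the remaining 6 measured regulators the interval included 1.

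All 3 precursor factors had ratios below 1, and Pax3 was apart from 1 beyond counting error. Pax3, a paired-box factor that precursors need for migration from the somite (mm9 chromosome 1, 78097842 to 78193711), had 2.91 FPKM in control and 1.84 FPKM in mutant tongue. The ratio of 0.631 rested on about 207 and 159 reads, which gave a 95% counting interval of 0.507 to 0.775, and its log2 ratio of −0.46 lay at percentile 1.06 of measured genes. Lbx1, a homeobox factor of migrating precursors (chromosome 19, 45308218 to 45309726), had 6.36 FPKM in control and 5.08 FPKM in mutant tongue. Its ratio of 0.798 had an interval of 0.603 to 1.06, from about 104 and 102 reads, so the libraries were not apart beyond counting error. Pax7, the paralog of Pax3 that marks later progenitors and satellite cells (chromosome 4, 139293996 to 139388883), had 3.07 FPKM in control and 2.98 FPKM in mutant tongue. Its ratio of 0.971 (0.814 to 1.15) was near 1. The paralogs had unequal ratios: the quotient of Pax7 over Pax3 was 1.06 in control and 1.62 in mutant tongue, a 1.54-fold difference (1.18 to 2.01 by counting error). In a bulk library, fewer cells that make a factor and less of its RNA per cell cannot be told apart.

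Pax3 is also made in neural crest cells and in the dorsal neural tube. Of 8 listed neural crest genes 6 had a row, all 6 of them measured, while Tfap2a and Tfap2b had no row under these symbols. Of these 6 genes 5 were lower in the mutant library, and none was at 0. Their summed level was 66.2 FPKM in control and 58.6 FPKM in mutant tongue, with a median log2 ratio of −0.12. Sox10, the factor that defines migrating crest and Schwann precursors, had 4.51 and 3.94 FPKM (ratio 0.874, 0.727 to 1.05). Foxd3, a factor of early crest, had 1.67 and 1.72 FPKM. Neuron genes had a summed level of 53.4 and 46.3 FPKM, with 5 of 9 measured genes lower, a median of −0.23 that was 0.018 over genes of at least 5 FPKM, and no listed gene at 0. The neuron genes went both ways: Tubb3, the neuronal beta-tubulin, had 6.33 and 3.16 FPKM and the synaptic gene Snap25 3.45 and 0.239 FPKM, while Dcx, the doublecortin gene, had 8.79 and 11.6 FPKM (ratio 1.32, 1.24 to 1.41). Nefm, a neurofilament gene, had a ratio of 1.10 (0.941 to 1.28). The part of crest or nerve cells in the ratio of Pax3 was not tested.

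The determination factors were close to even. Myf5 (chromosome 10, 106919964 to 106923190), the earliest of the muscle bHLH factors, had 7.45 FPKM in control and 6.78 FPKM in mutant tongue. Its ratio was 0.910 (0.773 to 1.07, from about 294 and 327 reads). Myod1 (chromosome 7, 53631844 to 53634462), the factor that can convert fibroblasts to muscle, had 46.9 and 43.9 FPKM. Its ratio was 0.937 (0.876 to 1.0009, from about 1643 and 1884 reads), and the upper bound lay just above 1. Myod1 stood 6.29-fold above Myf5 in the control and 6.47-fold above it in the mutant library, a quotient of 1.03 that was within counting error of 1 (0.867 to 1.22).

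Of the differentiation factors, Myog and Mef2c were slightly higher in the mutant library. Myog (chromosome 1, 136186581 to 136189125), which is required for fusion and fibre formation, had 80.8 FPKM in control and 84.9 FPKM in mutant tongue. Its ratio was 1.05 (0.994 to 1.11, from about 2262 and 2911 reads), so the interval included 1. Mef2c, a partner of the bHLH factors on muscle genes (chromosome 13, 83643033 to 83806684), had 21.4 and 23.0 FPKM (ratio 1.07, 1.02 to 1.13). Myf6, also called Mrf4, which appears mainly in maturing fibres (chromosome 10, 106929916 to 106931785), lies 6725 bases from Myf5. It had 0.290 and 0.2003 FPKM, which stood for about 7 and 6 reads, beside a floor of 3 reads equal to 0.127 and 0.104 FPKM. Its ratio of 0.691 had an interval of 0.194 to 2.43, so a difference in Myf6 was not detectable at this depth. No gene model of the 10 regulators overlapped that of another symbol.

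The 4 muscle bHLH factors together summed to 135.4 FPKM in control and 135.8 FPKM in mutant tongue. Within this sum Myog held 59.7% in control and 62.5% in mutant tongue, and Myod1 held 34.6% and 32.3%. Myf5 held 5.50% and 4.995%, and Myf6 0.214% and 0.147%. Within a nearly equal total, Myog stood 1.73-fold above Myod1 in the control and 1.94-fold above it in the mutant library. The quotient of these was 1.12, with a counting interval of 1.03 to 1.22.

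**Figure D2:**
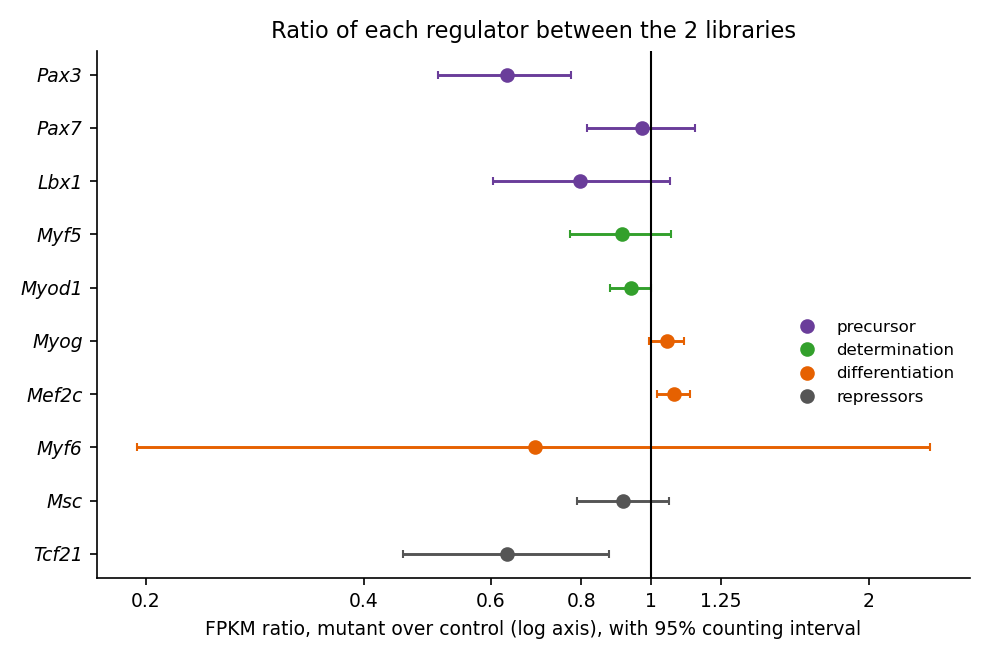
FPKM ratio of the mutant over the control library for each regulator on a log axis, coloured by role, with its 95% counting interval; the vertical line is a ratio of 1. Pax3 and Tcf21 lie wholly below the line, Mef2c lies wholly above it, and the interval of Myf6 runs from 0.194 to 2.43.

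By class, the ratio of summed FPKM was below 1 for the precursor factors and above 1 for the differentiation factors. The 3 precursor factors summed to 12.3 FPKM in control and 9.90 FPKM in mutant tongue (ratio 0.802, 0.687 to 0.935). The 2 determination factors had a ratio of 0.933 (0.878 to 0.992), from 54.3 and 50.7 FPKM. The 3 differentiation factors summed to 102.5 and 108.1 FPKM (ratio 1.05, 1.009 to 1.10), of which Myf6 added almost nothing. Differentiation over precursor FPKM was 8.30 in control and 10.9 in mutant tongue, a quotient of 1.32 with a counting interval of 1.12 to 1.54. The quotient was 1.23 without Pax3, 1.41 without Pax7 and 1.31 without Lbx1. It was 1.21 when Myf5 was counted with the precursor factors and Myod1 with the differentiation factors. Against single precursor factors, Myog over Pax3 went from 27.8 to 46.2, whereas Myog over Pax7 was 26.3 in control and 28.5 in mutant tongue, a quotient of 1.08 (0.907 to 1.29). The class intervals use a normal approximation on the log scale and cover counting error only, and with 1 library a genotype the spread between embryos is unknown.

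Both bHLH repressors had ratios below 1, and for Tcf21 but not for Msc the counting interval left out 1. The difference between their ratios was not tested. Tcf21, also called capsulin (chromosome 10, 22537079 to 22539934), had 3.77 FPKM in control and 2.39 FPKM in mutant tongue. Its ratio was 0.632 (0.453 to 0.876, from about 88 and 68 reads), and its log2 ratio of −0.50 lay at percentile 0.896 of measured genes. Msc, also called musculin or MyoR (chromosome 1, 14743429 to 14746047), had 10.8 and 9.86 FPKM (ratio 0.913, 0.790 to 1.06, from about 350 and 392 reads). Tcf21 is made by connective tissue progenitors as well as by muscle precursors. Of 10 listed connective tissue genes 7 were lower, with a median log2 ratio of −0.09, a summed level of 1042 and 1026 FPKM, and none at 0. The counting interval lay below 1 for 5 of the 10, beside 10.2% of measured genes, and above 1 for 3, beside 10.7%. Dcn, which encodes decorin, had 17.2 and 11.7 FPKM (ratio 0.680, 0.604 to 0.767), and Lum, which encodes lumican, had 15.2 and 12.6 FPKM. In contrast Pdgfra, the receptor that marks this mesenchyme, had a ratio of 1.07 (1.04 to 1.10) and Prrx1 one of 0.984 (0.938 to 1.04). Osr2 had 13.6 and 17.3 FPKM (ratio 1.27, 1.13 to 1.44). It was the 1 gene of the 10 past the threshold for a large difference upward, beside 3.23% of measured genes. Dcn was the 1 past it downward, beside 2.2%. The part of connective tissue cells in the value of Tcf21 was not tested.

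**Figure D3:**
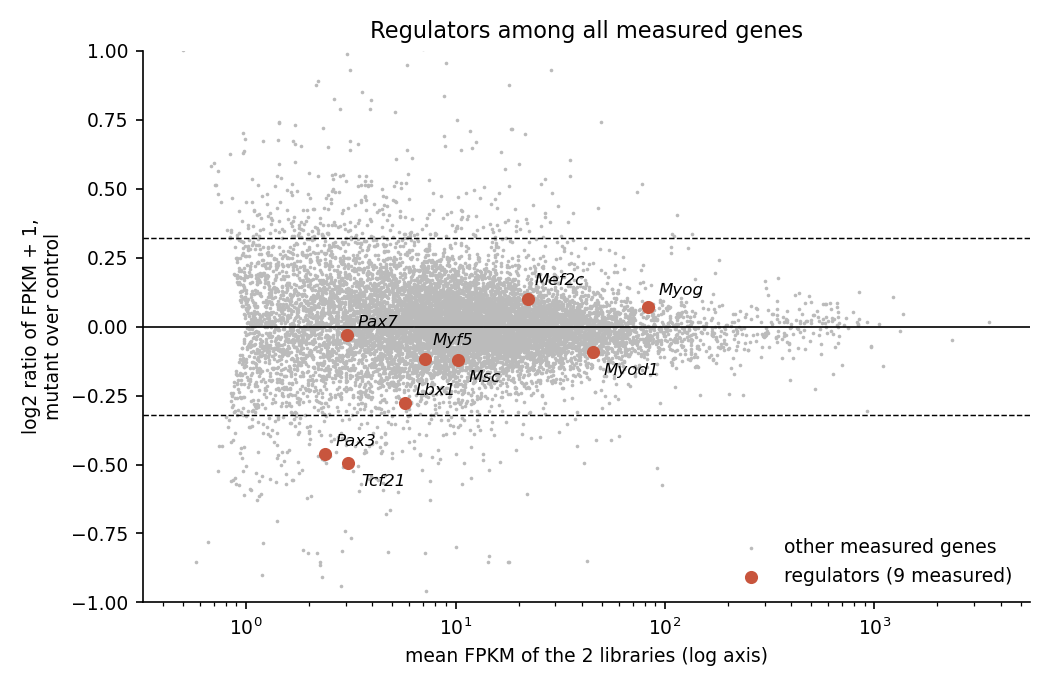
Log2 ratio of FPKM plus 1 (mutant over control) against the mean FPKM of the libraries on a log axis, for 12383 measured genes in grey and the 9 measured regulators in red; dashed lines mark values 25% above and 20% below the control, and 91 genes beyond the vertical range are not drawn. Pax3 and Tcf21 lie below the lower dashed line, Lbx1 just above it, and the abundant Myog, Myod1 and Mef2c lie close to 0.

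Pax3 and Mef2c each had 2 RefSeq transcript rows. For Pax3, NM_008781 (3868 nt) had 2.28 FPKM in control and 1.32 FPKM in mutant tongue (ratio 0.579, 0.452 to 0.735). NM_001159520 (3376 nt) had 0.629 and 0.515 FPKM (ratio 0.819, 0.513 to 1.30). The lower level of Pax3 was thus mostly in the longer row, which held 78.4% of the FPKM of the gene in control and 71.9% in mutant tongue. For Mef2c, NM_001170537 (6427 nt) had 17.5 and 17.8 FPKM (ratio 1.015, 0.958 to 1.08). NM_025282 (6325 nt), shorter by 102 nt, had 3.88 FPKM in control and 5.21 FPKM in mutant tongue (ratio 1.34, 1.19 to 1.51). Its share of the FPKM of Mef2c was 18.1% in control and 22.7% in mutant tongue, and the higher Mef2c value lay mostly in this row. The authors' tool divided reads among overlapping rows by estimation, so the reads behind a row, and these intervals, are less certain than those of the gene.

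**Figure D4:**
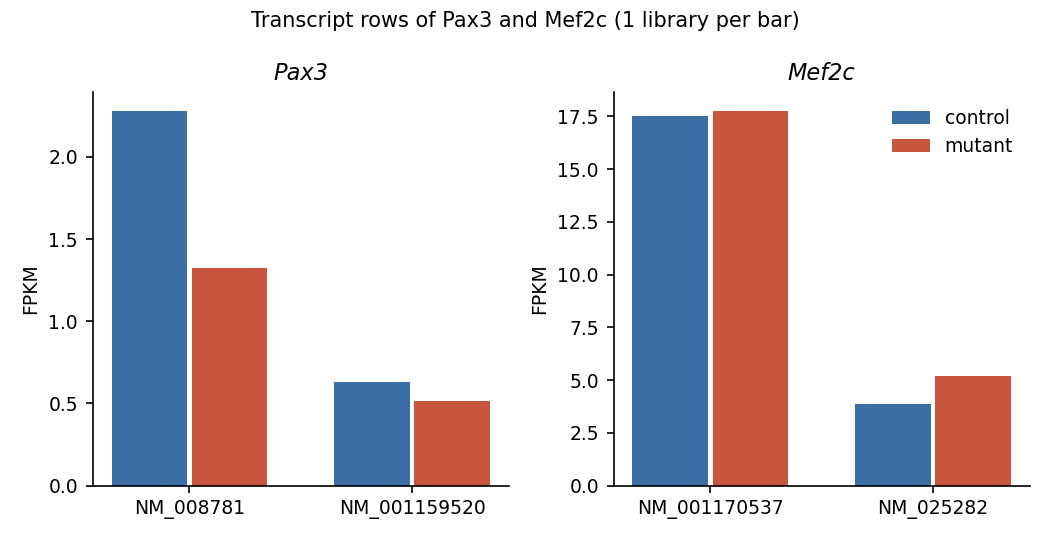
FPKM of the 2 transcript rows of Pax3 (left) and Mef2c (right) in the control (blue) and mutant (red) library, with no replicate behind a bar. For Pax3 the row NM_008781 is lower in the mutant library, at 1.32 against 2.28 FPKM, and for Mef2c the row NM_025282 is higher, at 5.21 against 3.88 FPKM.

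Mef2c is also made by endothelial and neural crest cells. Of 10 listed endothelial genes 7 had more RNA in mutant tongue and 3 less, with a median log2 ratio of 0.03, a summed level of 83.6 and 87.6 FPKM, and none at 0. Cdh5, the cadherin of endothelial junctions, had 20.2 and 20.7 FPKM (ratio 1.03, 0.958 to 1.10). Pecam1 and Erg had ratios of 1.24 (1.13 to 1.35) and 1.27 (1.06 to 1.53), while Kdr, the main VEGF receptor, had 0.911 (0.833 to 0.994). The part of endothelium in the Mef2c value was not tested. The related Mef2a and Mef2d were also higher, with ratios of 1.15 (1.04 to 1.27) and 1.15 (1.04 to 1.28), beside 1.07 (1.02 to 1.13) for Mef2c. Of the 14 measured genes of the MEF2 family and its cofactors outside the members, 6 were higher and 8 lower, with a median of −0.01. None of the 14 passed the threshold for a large difference, and Hdac7, a deacetylase that represses MEF2 factors, had a ratio of 0.879 (0.827 to 0.945). Vgll2, a TEAD cofactor of muscle, had 6.49 and 7.45 FPKM (ratio 1.15, 0.944 to 1.397).

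Upstream of the bHLH factors lie the signals of migrating precursors and Eya1 and its relatives, which help to activate Myf5, Myod1 and Myog. Of the 15 measured genes on this list 10 were higher and 5 lower, with a median log2 ratio of 0.06. At least 25% higher on FPKM plus 1 were 3 of them (beside 3.23% of all measured genes), and none was at least 20% lower. Met, the receptor that precursors need to leave the somite, had 7.97 FPKM in control and 7.78 FPKM in mutant tongue (ratio 0.976, 0.897 to 1.06). The chemokine receptor Cxcr4, another migration gene, had a ratio of 0.964 (0.819 to 1.14). These receptors of migrating precursors were thus within counting error of an even level. Eya1, a coactivator of homeobox factors, had 5.93 and 9.02 FPKM (ratio 1.52, 1.36 to 1.70). Six2 and Eya4 had ratios of 1.32 (1.201 to 1.46) and 1.253 (1.17 to 1.34). Meox1, a homeobox factor of the somite, had 10.9 and 13.9 FPKM. All values of this list are of the whole tongue, and the part of muscle cells or of other cells in them was not tested.

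The bHLH factors work as pairs with E proteins, and Id proteins block them by binding these partners. The 18 measured partners and inhibitors went both ways, with 7 higher and 11 lower and a median log2 ratio of −0.06. For 7 of the 18 the counting interval lay below 1, beside 10.2% of measured genes, and for 2 above 1, beside 10.7%. The E proteins Tcf3, Tcf12 and Tcf4 had ratios of 0.960 (0.926 to 0.995), 0.944 (0.917 to 0.971) and 1.0005 (0.973 to 1.03). Id1 had 41.4 FPKM in control and 32.7 FPKM in mutant tongue (ratio 0.788, 0.709 to 0.876), the 1 gene of the 18 past the threshold for a large difference, a share near the 5.43% of all measured genes. Id3 was lower too, with 0.897 (0.830 to 0.971), whereas Id2 was higher, with 1.18 (1.08 to 1.28). Hes1, a Notch target that holds back Myod1, had a ratio of 0.846 (0.764 to 0.939), and Hes6, a bHLH gene of differentiating myoblasts, had 1.11 (1.02 to 1.204). Twist2, a bHLH repressor of mesenchyme, had 0.887 (0.807 to 0.975). Id and Hes genes are expressed widely, and their values are of the whole tongue.

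Myog, Myod1 and MEF2 factors activate the genes of the contractile fibre and of the synapse on muscle. Of 29 measured early muscle target genes 19 were higher and 10 lower, with a median log2 ratio of 0.08, and none passed the threshold for a large difference. The counting interval lay above 1 for 8 of them, beside 10.7% of measured genes, and below 1 for 2, beside 10.2%. Tnnc1, which encodes slow troponin C, had 53.2 FPKM in control and 62.3 FPKM in mutant tongue (ratio 1.17, 1.06 to 1.29). The embryonic myosin light chain Myl4 and the acetylcholine receptor subunit Chrna1 both had a ratio of 1.16. Lower beyond counting error were Myh8, a perinatal myosin heavy chain, with 0.877 (0.818 to 0.940), and Cdh15, the M-cadherin of myoblasts, with 0.902 (0.831 to 0.979). Tmem8c, the fusion protein myomaker, had 20.8 and 22.8 FPKM (ratio 1.09, 0.978 to 1.23), and Des, which encodes desmin, had 32.3 and 31.8 FPKM. Tnnt2 was left out by its status.

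Myoblasts leave the cell cycle before they fuse, with the inhibitors Cdkn1a and Cdkn1c and the retinoblastoma protein. Of 10 genes listed for cell cycle exit 7 were higher and 3 lower, with a median of 0.05. The list holds the D-type cyclins Ccnd1, Ccnd2 and Ccnd3 beside inhibitors, so its counts give no direction of exit. The counting interval lay above 1 for 1 of the 10, beside 10.7% of measured genes, and below 1 for 3, beside 10.2%. Cdkn1a had 20.1 and 22.3 FPKM (ratio 1.11, 1.009 to 1.22), while the far more abundant Cdkn1c had 982.3 and 936.5 FPKM (ratio 0.953, 0.940 to 0.967). Rb1 had a ratio of 1.08 (0.980 to 1.18). Ccnd3, the D-type cyclin that differentiating muscle keeps, had 137.7 and 129.1 FPKM (ratio 0.938, 0.904 to 0.974). None of the 10 passed the threshold for a large difference, and all of them are made outside muscle as well.

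**Figure D5:**
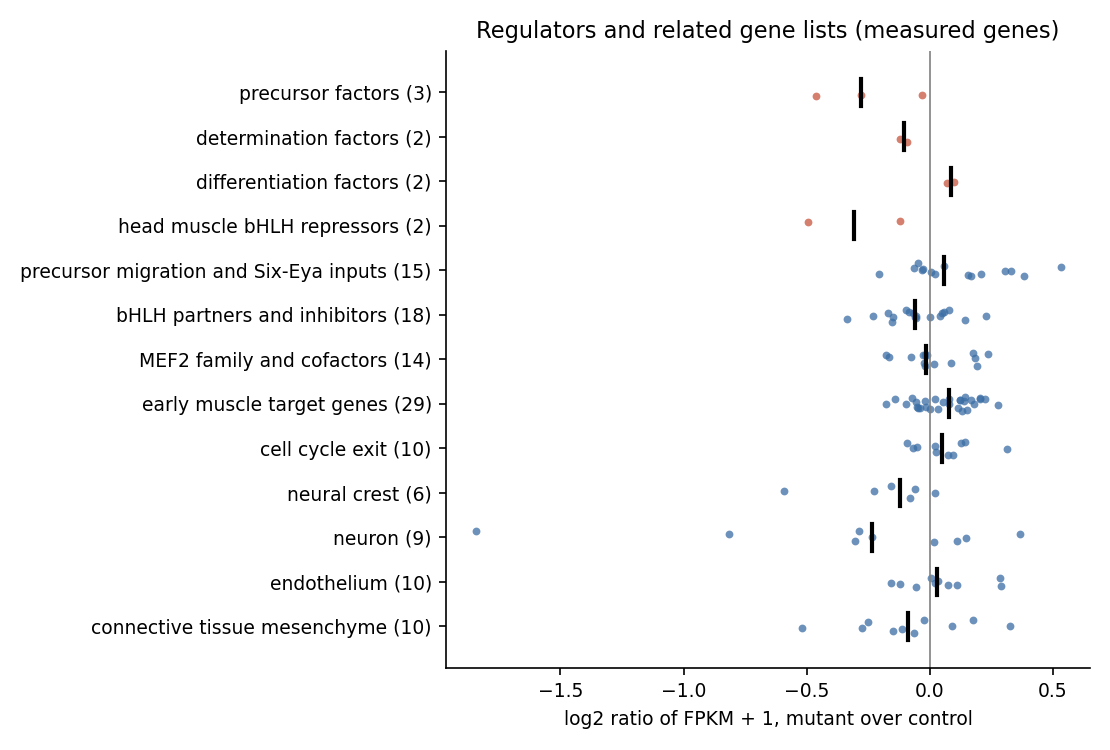
Log2 ratio of FPKM plus 1 (mutant over control) of each measured gene of the 4 regulator classes (red) and of related and cell type lists (blue), with black bars at the medians and the number of measured genes in brackets. The regulator medians run from −0.31 for the repressors and −0.28 for the precursor factors to 0.08 for the differentiation factors, beside 0.08 for the early muscle target genes.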

How the data were processed

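RNA of embryonic mouse tongue was extracted with a Qiagen RNeasy kit and made into cDNA with NuGEN Ovation RNA-Seq v2, per the labels' protocols. Named in the submitters' processing notes are TopHat 1.4.1, Bowtie 0.12.7 and mm9 as the build. For Cufflinks the version, and for the reads the length and strand, are not stated there or in the labels. Per the file headers, the deposited values are FPKM per RefSeq transcript, with a status, and the coverage of each transcript, a signal not scaled for depth. Starts are counted from 1.

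Rows of a symbol were summed. Coverage times length clustered at 47.3 bases for the lowest values of single-row genes of at least 1000 nt, taken as 1 read, which gave approximate reads per gene. Ratios of these have exact conditional (Clopper-Pearson) 95% intervals, in libraries that differed in depth by 1.22-fold. The log2 ratio is of FPKM plus 1. Computation used Python 3.11.15, numpy 2.4.6, scipy 1.17.1 and pandas 2.3.3, and the read and interval steps were tested on simulated data. Genes counted as measured at 1 FPKM in either library with all rows at status OK.

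The members and lists were chosen with earlier results of these data known. Named beside the members were Osr1, up to 4 genes of each list with the largest log2 ratios at 5 FPKM, and the defining genes of other cell types. Met, Cxcr4, Id3, Tcf3, Tcf4, Tcf12, Hes6, Cdh15, Tmem8c, Des, Tnnt2, Snap25, Cdkn1c, Sox10, Foxd3, Pdgfra, Prrx1 and Cdh5 were named outside the size rule, after their values were seen. Some genes that the rule names are left out of the text and stand in the counts only. No likeness of pattern between genes was computed, since 2 libraries give 1 ratio a gene. The alternatives were other pseudocounts, filters, scalings, transcript sums and class memberships.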

Additional observations from a re-analysis of the deposited data

How the results depend on the processing

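Over the 7 alternatives, none of the members' ratios changed direction. Another pseudocount cannot change the direction of a ratio. For a gene with 1 transcript row, neither can the choice of row or the use of estimated reads. Of 70 recomputed member log2 ratios 69 moved from the main value by less than the ± reach of the counting interval on the log2 scale. The exception was Mef2c, whose log2 ratio was 0.020 with the highest transcript row only. This compares the size of a shift, and a value could still lie outside the interval itself. Pax3 did so at a pseudocount of 5, with a log2 ratio of −0.21 against −0.46. The count of lower members was 4 at a filter of 5 FPKM, and the count of higher members was 1 without Mef2c, Tcf21 and Msc. At 5 FPKM the MEF2 list had 3 higher genes, the neural crest list 0 and the neuron list 2 lower genes, since fewer genes passed, and the neuron median turned from −0.23 to 0.018. The differentiation to precursor quotient had a log2 value of 0.40 and ran from 0.27 to 0.50 over 10 alternatives, 5 of which, leaving out single members, were added after the data were seen. No paired analysis was possible because each genotype had 1 library. For the same reason no replicate could be left out. Depth limits Myf6 most, with about 7 and 6 reads.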
